A study of Rattus norvegicus with 8 samples.

Results

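The protein kinase C family is described here from 8 rat genes, Prkca, Prkcb, Prkcd, Prkce, Prkch, Prkci, Prkcq and Prkcz. They were measured by 12 probes of an array with 45598 non-control probes, and by 8 of 16667 gene symbols. A probe belonged to the family when its RefSeq accession matched 1 of these genes, whatever its values. Prkcb, Prkcd, Prkcq and Prkcz had 2 probes each, called here the brighter and the dimmer probe by mean signal, and the other genes had 1. The samples were lung tissue of male rats, in 4 groups with 2 arrays each. EV-treated smoke lungs came from rats that had 12 weeks of cigarette smoke and then, in week 13, extracellular vesicles of human umbilical cord mesenchymal stromal cells put into the trachea. MSC-treated smoke lungs had the same smoke and about 2500000 of the cells themselves, and the vesicles came from as many cells. Smoke lungs had the 12 weeks of smoke with no treatment named, and naive lungs came from rats kept in normal air. Neither strain nor age was given in the sources used here.

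Protein kinase C enzymes are serine/threonine kinases that pass on signals from receptors which split membrane phosphoinositides. The classical members Prkca and Prkcb need calcium and diacylglycerol, while Prkcd, Prkce, Prkch and Prkcq respond to diacylglycerol without calcium. The atypical members Prkci and Prkcz respond to neither and act with the Par cell polarity proteins. In lung, these kinases are known for roles in airway smooth muscle tone, endothelial and epithelial barriers and leukocyte signalling.

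Each array reported a processed signal per spot, a background-subtracted brightness with no fixed unit. The arrays differed widely in brightness. The 75th percentile of signal was 762 and 483 in EV-treated, 246 and 256 in MSC-treated, 3235 and 2677 in smoke and 568 and 362 in naive lungs. It was thus 6.49 times as high in smoke as in naive lungs, whereas the signal of the E1A spike-in controls, known RNAs read by 7 control probes, was 0.832 times as high. A level below is log2 signal minus the array's 75th percentile, and differences were tested with limma over all 29838 probes read well above background by both arrays of some group. On this scale 46.4% of tested probes were called in smoke against naive lungs (12.7% higher, 33.6% lower), and 27.5% of these calls were higher, against 42.4% when arrays were scaled to their medians and 99.4% when scaled to E1A. The higher share was 73.0% of the calls in EV-treated against smoke lungs (57.5% and 0.939% under median and E1A scaling) and 71.2% in MSC-treated against smoke lungs (53.3% and 0.783%). Every direction below is therefore relative to the array's 75th percentile, unless another scaling is named. Each group filled 1 column of the single slide, so slide column and group cannot be told apart.

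The 5 type 2 alveolar, 5 type 1 alveolar and 5 endothelial markers were well above background on all 8 arrays. The mean type 2 level was 6.15 and 6.39 in EV-treated, 6.80 and 5.65 in MSC-treated, 5.58 and 5.56 in smoke and 6.56 and 6.63 in naive lungs. The mean endothelial level was 2.62 and 2.68 in EV-treated, 3.57 and 2.61 in MSC-treated, 2.25 and 2.46 in smoke and 2.86 and 2.99 in naive lungs. In smoke against naive lungs 3 type 2, 1 type 1, 2 endothelial, 3 of 6 T cell and 1 of 5 smooth muscle markers were called lower. Higher calls were 1 endothelial, 2 of 5 macrophage and 2 smooth muscle markers, and no B cell or heart muscle marker was called. Of all tested probes 33.6% were called lower and 12.7% higher. Heart muscle markers (4 of 5 measured) were not even: their mean level was 2.20 and -3.51 on the EV-treated arrays, -1.77 and 3.25 on the MSC-treated, -4.27 and -4.87 on the smoke and -4.02 and -2.73 on the naive arrays, and the part of these markers in the results was not tested. In bulk tissue, fewer cells of a type and less RNA per cell cannot be told apart. The labels do not say that the 2 samples of a group are separate animals, so a p-value here covers only sample-to-sample spread, part of which may be technical.

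The upstream sequences of Prkca and Prkcz are shown because each had a probe that was called in smoke against naive, EV-treated against smoke and MSC-treated against smoke lungs. Both run over the 250 bases before the start site on the minus strand (RefSeq, build GRCr8), at chr10:93787328-93787577 for Prkca and chr5:171212675-171212924 for Prkcz, 5′ to 3′, with GC boxes (GGGCGG on either strand) in capitals.
Prkca: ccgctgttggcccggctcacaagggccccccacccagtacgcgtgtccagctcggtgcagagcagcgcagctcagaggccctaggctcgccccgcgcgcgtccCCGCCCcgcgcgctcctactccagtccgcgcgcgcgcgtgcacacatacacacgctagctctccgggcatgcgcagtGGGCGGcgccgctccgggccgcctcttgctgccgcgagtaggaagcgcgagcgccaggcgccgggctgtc
Prkcz: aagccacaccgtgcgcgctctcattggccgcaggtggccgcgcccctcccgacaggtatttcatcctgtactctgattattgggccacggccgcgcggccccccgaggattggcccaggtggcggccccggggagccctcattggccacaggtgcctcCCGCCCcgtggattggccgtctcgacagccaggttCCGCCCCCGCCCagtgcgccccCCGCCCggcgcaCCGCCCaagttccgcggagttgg
The Prkca stretch held 2 GC boxes and was 74.8% G or C, and the Prkcz stretch held 5 and was 72.0% G or C. RefSeq promoters of 300 bases (250 before and 50 after the start) were matched for 6 of the 8 genes, all but Prkcb and Prkch. All 6 held GGGCGG, against 33.1% of 33469 rat promoters of that length. TATAAA was in 1 of 6 (Prkcd), against 14.2% of promoters, TGANTCA in 0 of 6 against 7.33% and TGACGTCA in 0 of 6 against 1.83%, each searched on both strands. The GC content of the 6 promoters was between 66.3% and 73.3%, and the median of all promoters was 51.7%. These matches are letters in a window and were not tested for binding.

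Before any scaling, all 12 probes were brightest on the 2 smoke arrays, as were 83.4% of all tested probes and 65.2% of all probes on the array. The signal of Prkca was 1640 and 1130 in EV-treated, 1020 and 682 in MSC-treated, 3000 and 3430 in smoke and 1520 and 1100 in naive lungs. The dimmer Prkcz probe (A_44_P406474) read 37.0 and 18.8 in EV-treated, 14.8 and 10.9 in MSC-treated, 575 and 310 in smoke and 29.8 and 14.3 in naive lungs. Both smoke arrays stood above the other 6 arrays for each of these probes. Of the 12 probes, 8 were well above background on all 8 arrays; the exceptions were both Prkcq probes and the dimmer probes of Prkcd and Prkcz. Signals ran from 4.69 for the dimmer Prkcq probe on a naive array to 18400 for Prkci on a smoke array. No spot of these probes was saturated.

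**Figure D1:**
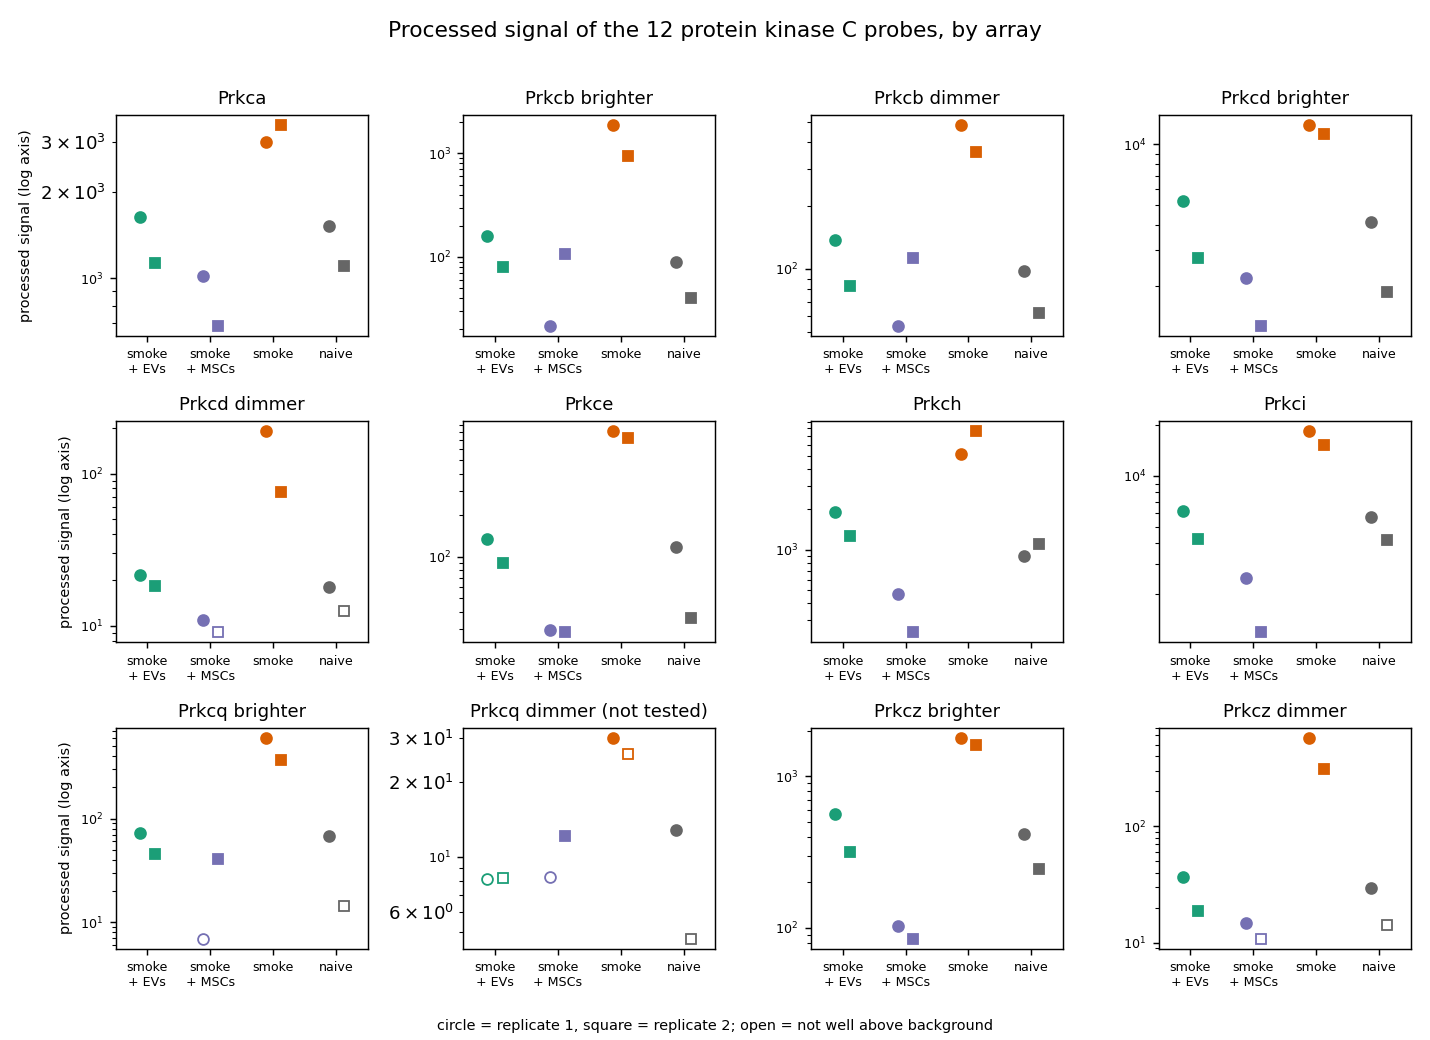
Processed signal (log axis) of the 12 protein kinase C probes, 1 panel per probe, for the 4 groups in order EV-treated smoke, MSC-treated smoke, smoke and naive lungs; points are single arrays and open points were not well above background. In all 12 panels the 2 smoke arrays are the brightest, as for Prkca with 3000 and 3430.

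Among the classical kinases, Prkca, which is widely expressed, had levels of 1.10 and 1.22 in EV-treated, 2.05 and 1.41 in MSC-treated, -0.11 and 0.36 in smoke and 1.42 and 1.60 in naive lungs. The smoke arrays were the lowest and did not overlap any other group, and EV-treated arrays were below the naive ones. Prkcb, the form known for B cell receptor signalling, was read by a brighter probe with 10 spots per array (A_64_P047281). Its level was -2.27 and -2.59 in EV-treated, -3.50 and -1.28 in MSC-treated, -0.78 and -1.50 in smoke and -2.68 and -3.17 in naive lungs. The smoke arrays were above the naive and EV-treated arrays, while the MSC-treated arrays lay far apart. The 10 spots of this probe varied within an array by an SD of 0.06 to 0.27 on the log2 scale. The dimmer Prkcb probe (A_44_P1089921) had levels of -2.47 and -2.54 in EV-treated, -2.19 and -1.18 in MSC-treated, -2.74 and -2.89 in smoke and -2.54 and -2.55 in naive lungs. Here the smoke arrays were the lowest and the MSC-treated arrays the highest.

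The second MSC-treated array, which had the higher Prkcb level on both probes, also had the highest mean level of 3 measured B cell markers of 5 listed, at -0.99. The other MSC-treated array stood at -3.73, the EV-treated arrays at -3.71 and -4.37, the smoke arrays at -1.89 and -2.93 and the naive arrays at -2.55 and -3.99. The 6 measured T cell markers (7 listed) were at -2.13 and -1.07 in MSC-treated, -2.78 and -2.84 in EV-treated, -2.38 and -3.26 in smoke and -2.45 and -2.43 in naive lungs. Their part in the Prkcb and Prkcq values was not tested.

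Of the calcium-independent kinases, Prkcd, which is activated by proteolysis during apoptosis as well as by diacylglycerol, had levels on its brighter probe (A_44_P451071) of 2.78 and 2.50 in EV-treated, 3.16 and 2.31 in MSC-treated, 1.95 and 2.08 in smoke and 2.86 and 2.37 in naive lungs. The smoke arrays were the lowest and did not overlap the other groups, but no comparison passed the test. The difference of this probe in smoke against naive lungs was -0.60, near the median of -0.56 over all tested probes. The dimmer Prkcd probe (A_44_P1159333) ranged from -5.14 to -4.09 with overlapping smoke and naive arrays, and was well above background on 1 of 2 MSC-treated and 1 of 2 naive arrays. Prkce, a form studied in heart and nerve protection, had levels of -2.51 and -2.42 in EV-treated, -3.06 and -3.17 in MSC-treated, -1.99 and -1.89 in smoke and -2.27 and -3.34 in naive lungs. The smoke arrays were the highest, and the naive arrays spanned the whole range of the treated ones.

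Prkch, a form found in epithelia and lymphocytes, had levels of 1.32 and 1.40 in EV-treated, 0.94 and -0.07 in MSC-treated, 0.69 and 1.51 in smoke and 0.65 and 1.62 in naive lungs. The smoke arrays lay inside the naive range. Prkcq, the T cell form at the immune synapse, had levels on its brighter probe (A_42_P608713) of -3.40 and -3.42 in EV-treated, -5.15 and -2.66 in MSC-treated, -2.42 and -2.87 in smoke and -3.08 and -4.66 in naive lungs. The MSC-treated arrays again lay far apart, the higher being the second, and 1 MSC-treated and 1 naive array were not well above background. The dimmer Prkcq probe (A_43_P16037) was well above background on 0 of 2 EV-treated and 1 of 2 arrays of each other group, and was not tested.

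Of the atypical kinases, Prkci had levels of 3.02 and 3.13 in EV-treated, 3.32 and 2.21 in MSC-treated, 2.51 and 2.51 in smoke and 3.33 and 3.52 in naive lungs. The smoke arrays were below the naive and EV-treated arrays and inside the MSC-treated range. Prkcz had levels on its brighter probe (A_42_P837086) of -0.45 and -0.61 in EV-treated, -1.26 and -1.59 in MSC-treated, -0.85 and -0.73 in smoke and -0.44 and -0.57 in naive lungs. On this probe the MSC-treated arrays were the lowest and overlapped no other group. Its dimmer probe had levels of -4.37 and -4.68 in EV-treated, -4.05 and -4.56 in MSC-treated, -2.49 and -3.11 in smoke and -4.25 and -4.66 in naive lungs. On this probe the smoke arrays were the highest and stood clear of the other 6 arrays, while the other groups overlapped each other.

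**Figure D2:**
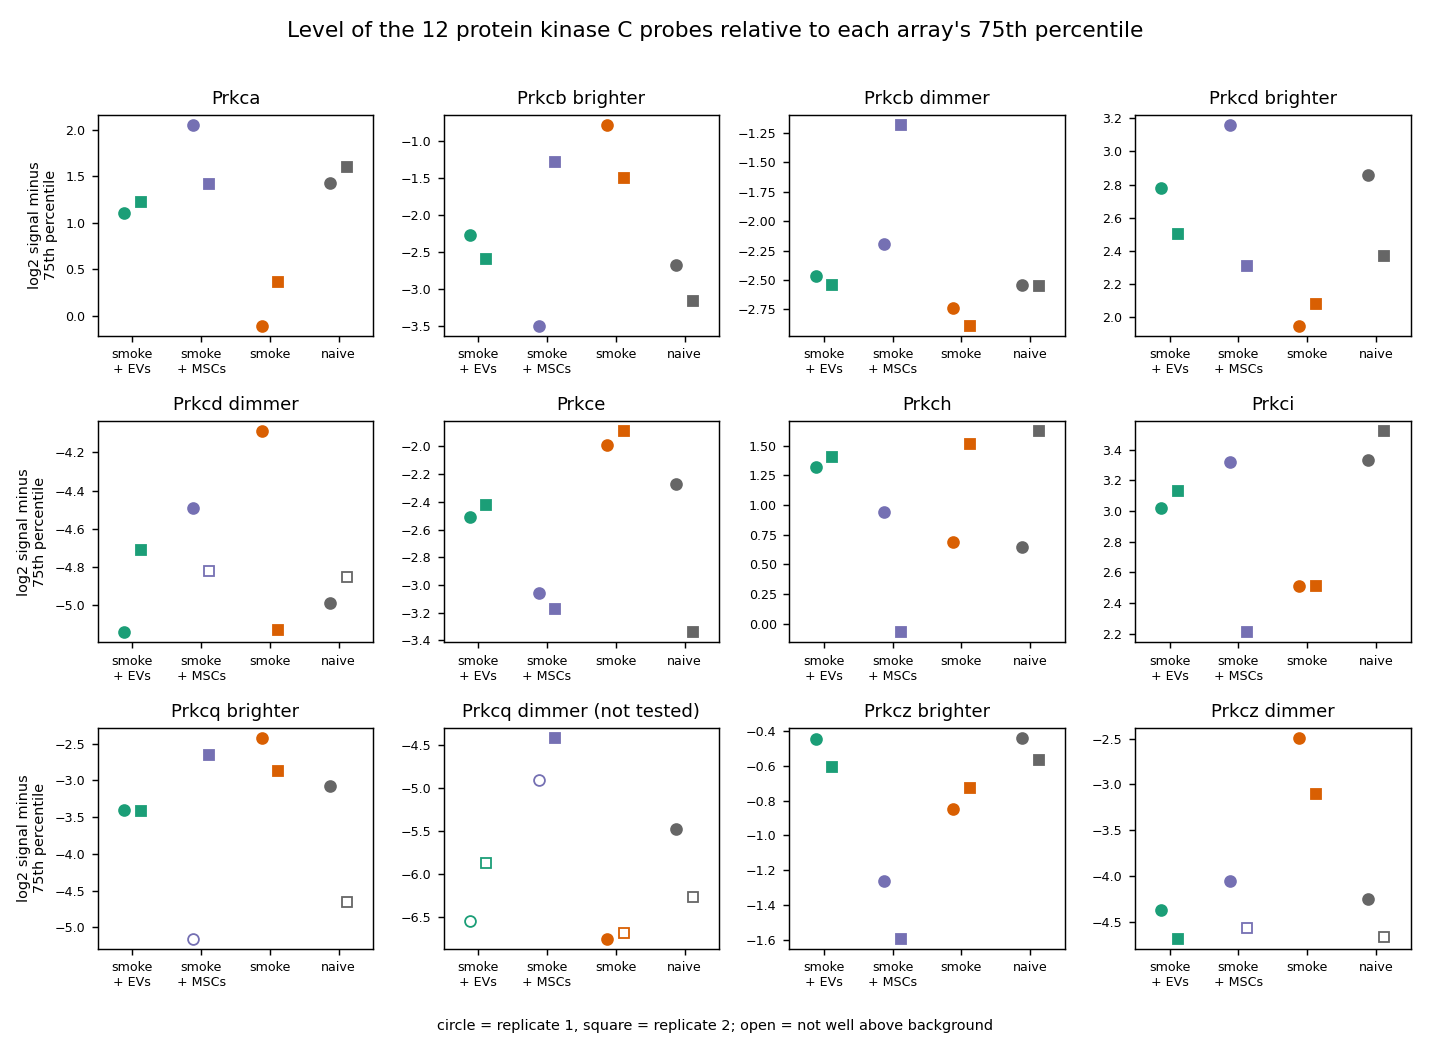
Level (log2 signal minus the array's 75th percentile) of the 12 probes on each array, in the same group order; open points were not well above background and each panel has its own axis. Prkca is lowest on the 2 smoke arrays (-0.11 and 0.36) and the dimmer Prkcz probe is highest on them (-2.49 and -3.11).

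The comparison of smoke with naive lungs asked how smoke exposure changed the family. The dimmer Prkcz probe rose by 1.65 ± 0.35 on the log2 scale (SE, 2 arrays per group), 3.15-fold, with 4.62 under E1A scaling but -0.14 after normexp background correction. It was well above background on both smoke arrays and on 1 of 2 naive arrays. Prkca fell by 1.39 ± 0.33, to 0.382 of the naive level, whereas under E1A scaling it was 1.57 higher. These 2 of 11 tested probes passed (limma, adjusted p = 0.00855 for Prkcz and 0.0127 for Prkca), beside 46.4% of all tested probes. The groups did not overlap for 9 of the 11 probes, against 78.8% of all tested probes. The median difference of the 11 probes was -0.04, that of all tested probes -0.56. Relative to that median the 2 called differences were 2.21 for the dimmer Prkcz probe and -0.83 for Prkca. Type 2, endothelial and heart muscle marker means were, like Prkca, lowest on the 2 smoke arrays. The type 1 mean was lowest on the second MSC-treated array, and the T cell, B cell, macrophage and smooth muscle means also differed from this order. Median marker differences were -1.14 for type 2, -0.81 for endothelial, -1.09 for heart muscle and -0.58 for type 1, beside -0.56 over all tested probes. The part of these markers in the Prkca difference was not tested.

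The brighter Prkcb probe (1.78 ± 0.67, adjusted p = 0.0603, E1A 4.75), Prkce (0.86 ± 0.38, adjusted p = 0.095, E1A 3.82) and the brighter Prkcq probe (1.22 ± 0.81, adjusted p = 0.24, E1A 4.19) had positive differences that limma did not call, and Prkci had a negative one (-0.92 ± 0.39, adjusted p = 0.0854) that turned to 2.05 under E1A scaling. Scaled to the array medians, 4 probes were called (40.8% of all probes): the dimmer Prkcz probe (1.99, adjusted p = 0.00652), the brighter Prkcb probe (2.12, adjusted p = 0.0393) and Prkce (1.19, adjusted p = 0.0459) higher and Prkca (-1.06, adjusted p = 0.0358) lower. Under E1A scaling all 11 probes were called higher, as 83.8% of all probes were called. Without the first smoke array neither call held: Prkca had -1.16 (limma, adjusted p = 0.0966) and the dimmer Prkcz probe 1.35 (adjusted p = 0.0707), while the share of all probes called was 16.2%. Without the second naive array the difference of Prkca was -1.30 (adjusted p = 0.0573).

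EV-treated against smoke lungs showed what followed the vesicles. The dimmer Prkcz probe fell by 1.72 ± 0.35, to 0.303 of the smoke level, with -4.21 under E1A scaling. Prkca rose by 1.04 ± 0.33, 2.05-fold, whereas its E1A-scaled difference was -1.45. These were the 2 calls among 11 probes (limma, adjusted p = 0.00972 for Prkcz and 0.0408 for Prkca), beside 38.8% of all tested probes (28.3% higher, 10.5% lower). The groups did not overlap for 9 of 11 probes, against 82.2% of all tested probes. The members' median was 0.26, against 0.50 over all probes, so that relative to the median of all probes Prkcz had -2.23 and Prkca 0.54. Under median scaling only the dimmer Prkcz probe was called (32.3% of all probes). The call of Prkca ended there (0.74, adjusted p = 0.117) and held in 5 of 17 other settings tried, 1 of them E1A scaling with its sign turned. The dimmer Prkcz probe was not called without the first smoke array (-1.42, adjusted p = 0.0816, with 6.85% of all probes called), without the second EV-treated array (-1.57, adjusted p = 0.0744, with 8.20% called) or after normexp correction (-0.16, adjusted p = 0.618).

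The other 9 probes were not called in EV-treated against smoke lungs. Their differences ran from -1.29 ± 0.67 for the brighter Prkcb probe to 0.63 ± 0.36 for the brighter Prkcd probe, with -3.77 and -1.85 under E1A scaling. With Prkce (-0.52 ± 0.38, E1A -3.01) and the brighter Prkcq probe (-0.77 ± 0.81, E1A -3.25), the brighter Prkcb probe had negative differences against smoke lungs and positive ones in smoke against naive lungs. Both comparisons use the same smoke arrays. Under E1A scaling all 11 probes were called lower in EV-treated lungs, where 75% of all probes were called.

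In MSC-treated against smoke lungs 4 of 11 probes were called, beside 58.7% of all tested probes (41.8% higher, 16.9% lower). Prkca rose by 1.61 ± 0.33, 3.05-fold (limma, adjusted p = 0.0045), and the dimmer Prkcb probe rose by 1.13 ± 0.36, 2.18-fold (adjusted p = 0.0299), whereas under E1A scaling they had differences of -2.41 and -2.89. The dimmer Prkcz probe fell by 1.50 ± 0.35, to 0.352 of the smoke level (adjusted p = 0.00786), with -5.53 under E1A scaling, but after normexp correction it was called in the opposite direction (0.64, adjusted p = 0.0471). It was well above background on 1 of 2 MSC-treated and both smoke arrays. Prkce fell by 1.17 ± 0.38, to 0.444 of the smoke level (adjusted p = 0.0291), with -5.19 under E1A scaling and 0.09 after normexp correction. The groups did not overlap for 6 of 11 probes, against 80.2% of all tested probes. The members' median was -0.64, that of all probes 0.68. Relative to that shift the values were 0.93 for Prkca, 0.45 for the dimmer Prkcb probe, -2.18 for the dimmer Prkcz probe and -1.85 for Prkce.

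Prkca stayed past the threshold in all 17 other settings for this comparison, with its sign turned under E1A scaling. Median scaling called 5 probes (55.7% of all probes), adding the brighter probes of Prkcb and Prkcz as lower and leaving out the dimmer Prkcb probe (0.55, adjusted p = 0.237). The dimmer Prkcb probe was called in 7 of the 16 other settings run for it, 1 of them E1A scaling with its sign turned. Without the second MSC-treated array its difference was 0.62, against 1.13 with all arrays. Leaving out any 1 smoke or MSC-treated array took Prkce to between -1.23 and -1.11, with adjusted p from 0.0692 to 0.106, and leaving out the first smoke array took the dimmer Prkcz probe to -1.20 (adjusted p = 0.0629). Among the probes not called, the brighter Prkcz probe had -0.64 ± 0.27 (adjusted p = 0.0771) and Prkci 0.26 ± 0.39 (adjusted p = 0.59), with -4.66 and -3.76 under E1A scaling. Under E1A scaling all 11 probes were called lower in MSC-treated lungs, where 89.1% of all probes were called.

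**Figure D3:**
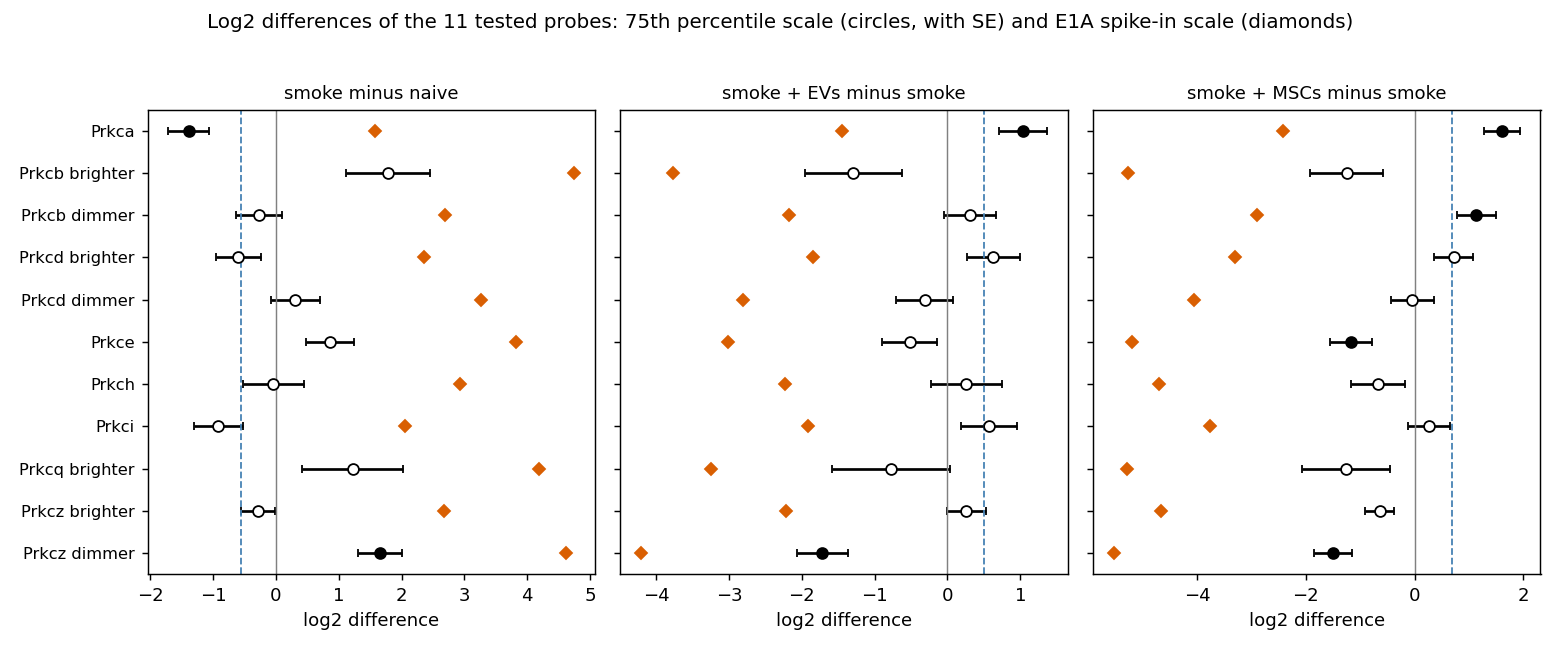
Log2 differences of the 11 tested probes (rows) in smoke minus naive, EV-treated minus smoke and MSC-treated minus smoke lungs: circles with SE bars are on the 75th percentile scale, filled where limma called them, diamonds are under E1A scaling and the dashed line is the median of all probes. All 11 diamonds lie above 0 in the first panel and below 0 in the others, whereas the circles fall on both sides, with 2, 2 and 4 filled.

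Set against each other, EV-treated and MSC-treated lungs differed on no protein kinase C probe by limma (0 of 11 called, 1 at an unadjusted p below 0.05), beside 5.55% of all tested probes. That share was 0% when any 1 smoke or EV-treated array was left out or dim probes were kept in, and 0.456% and 0.700% without the first and the second MSC-treated array. The lowest adjusted p was that of the brighter Prkcz probe (0.90 ± 0.27, adjusted p = 0.0811, E1A 2.44). Differences were 0.92 ± 0.49 for Prkch (adjusted p = 0.24, E1A 2.46) and 0.65 ± 0.38 for Prkce (adjusted p = 0.279, E1A 2.18). The arrays did not overlap for 5 of 11 probes, against 60.9% of all tested probes. Under E1A scaling 4 probes were called higher in EV-treated lungs, where 40.3% of all probes were called.

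Against naive lungs, neither treated group had a called probe, and 0% of all tested probes were called in either comparison. In EV-treated against naive lungs 0 of 11 probes passed even at an unadjusted p below 0.05 (limma), and differences ran from -0.35 to 0.50. In MSC-treated against naive lungs 2 of 11 had an unadjusted p below 0.05: the brighter Prkcz probe (-0.92 ± 0.27, adjusted p = 0.144) and the dimmer Prkcb probe (0.86 ± 0.36, adjusted p = 0.229, E1A -0.20). The arrays did not overlap for 4 of 11 probes in each comparison, against 37.2% of all tested probes for EV-treated and 49.0% for MSC-treated lungs. Under E1A scaling 1 probe, the brighter Prkcz probe, was called lower in MSC-treated than in naive lungs (-1.98, adjusted p = 0.0461), beside 5.75% of all probes.

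A ratio of 2 probes of a gene on the same array does not depend on the factor by which an array is scaled, but it does depend on the background correction. For Prkcz the log2 ratio of the dimmer over the brighter probe was -3.92 and -4.08 in EV-treated, -2.79 and -2.96 in MSC-treated, -1.65 and -2.38 in smoke and -3.81 and -4.09 in naive lungs. The ratio was highest on the smoke arrays, which did not overlap the naive, EV-treated or MSC-treated arrays. It was 1.93 higher in smoke than in naive lungs, and against smoke lungs it had changes of -1.98 in EV-treated and -0.86 in MSC-treated lungs. The brighter probe was designed to a predicted RefSeq transcript and the dimmer to a curated one of the same gene, so the pair need not read the same transcripts. The dimmer probe was well above background on 1 of 2 MSC-treated and 1 of 2 naive arrays, and the ratio depended on the background correction. After normexp correction its changes were 0.27 in smoke against naive, -0.50 in EV-treated against smoke and, with the sign turned, 0.82 in MSC-treated against smoke lungs.

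For Prkcb the same ratio was -0.20 and 0.05 in EV-treated, 1.31 and 0.09 in MSC-treated, -1.96 and -1.39 in smoke and 0.14 and 0.62 in naive lungs. Here the smoke arrays were the lowest and stood clear of all others, with a change of -2.05 in smoke against naive, 1.60 in EV-treated against smoke and 2.38 in MSC-treated against smoke lungs (-1.69, 1.44 and 1.77 after normexp correction). The Prkcb probes were designed to different RefSeq transcripts of the gene, so this pair too need not read the same transcripts. For Prkcd the ratio was -7.92 and -7.21 in EV-treated, -7.65 and -7.13 in MSC-treated, -6.04 and -7.21 in smoke and -7.85 and -7.22 in naive lungs, with 1 smoke array apart and the other at the level of the rest. Its changes were 0.91, -0.94 and -0.77 in the 3 comparisons with smoke lungs, and -0.83, 0.42 and 1.44, with every sign turned, after normexp correction. For Prkcq the dimmer probe was mostly near background, so its ratio is not read. The ratios are given with no test: the smallest exact 2-sided permutation p with 2 arrays against 2 is 0.333, and no model was fitted to them.

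**Figure D4:**
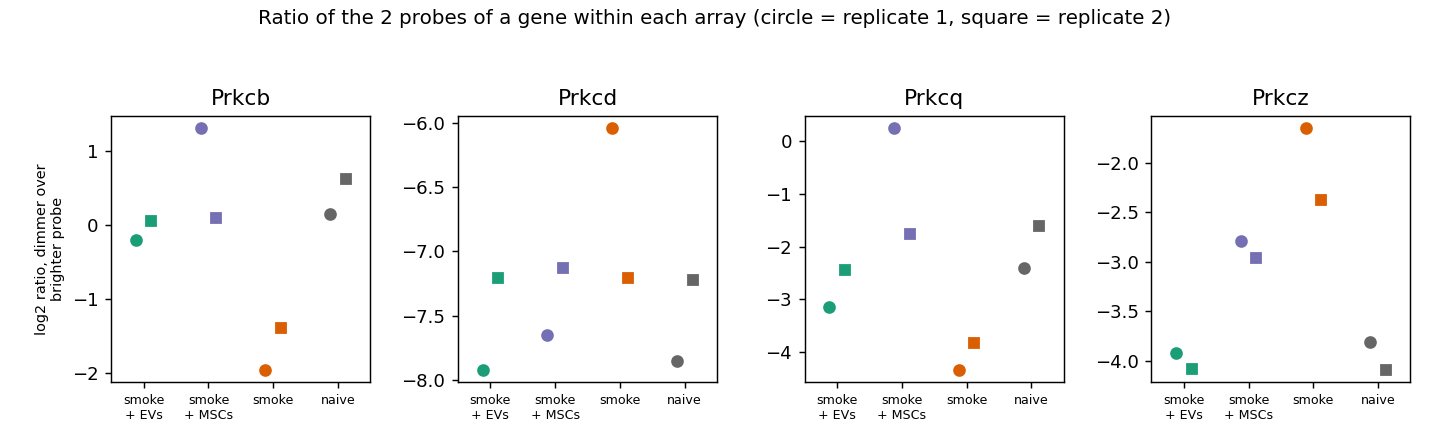
Log2 ratio of the dimmer over the brighter probe of Prkcb, Prkcd, Prkcq and Prkcz on each array (circles replicate 1, squares replicate 2), in the same group order, each panel with its own axis. Smoke arrays are highest for Prkcz (-1.65 and -2.38) and lowest for Prkcb (-1.96 and -1.39).

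Genes that act around the kinases were taken from 9 lists with 89 genes, 76 of them measured, each by its brightest probe. In smoke against naive lungs 13 were called higher and 21 lower, with a median of -0.37 beside -0.56 over all probes, of which 12.7% were called higher and 33.6% lower. In EV-treated against smoke lungs 17 were called higher and 10 lower (median 0.33 beside 0.50), beside 28.3% and 10.5% of all probes. In MSC-treated against smoke lungs 25 were called higher and 15 lower (median 0.41 beside 0.68), beside 41.8% and 16.9% of all probes. Counts of the single lists stand beside these same shares of all probes. The balance of higher to lower turned under median scaling, with 16 higher and 12 lower, 11 and 14, and 14 and 23 in the 3 comparisons. That scaling called 40.8%, 32.3% and 55.7% of all probes. In smoke against naive lungs the balance was 17 and 8 under cyclic loess (39.5% of all probes called) and 7 and 40 after normexp correction (73.9%). Without the first smoke array the median of the 76 genes was -0.37, 0.22 and 0.35, beside -0.47, 0.42 and 0.61 over all probes. Without the second EV-treated array it was 0.24 in EV-treated against smoke lungs, beside 0.43 over all probes. Fewer of the genes were called in these fits, as over all probes. Under E1A scaling the counts were 66 higher and 0 lower, 1 higher and 57 lower, and 1 higher and 67 lower in these 3 comparisons. Of all probes 83.8%, 75% and 89.1% were called there. The genes named next are among those with the highest and lowest called difference of a list.

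Upstream, the Gq and phospholipase C list (14 measured) had 3 higher and 5 lower in smoke against naive lungs, 4 and 4 in EV-treated against smoke, and 7 and 3 in MSC-treated against smoke lungs (3 and 4, 2 and 4, and 4 and 4 under median scaling). Plcb2, a phospholipase that makes diacylglycerol in leukocytes, had -2.82, 2.76 and 3.93 in these comparisons (limma, adjusted p = 0.00372, 0.0057 and 0.000454), but 0.15, 0.28 and -0.09 under E1A scaling. Gna15, a G protein of blood cells, had 1.89 in smoke against naive lungs (adjusted p = 0.0111), 4.85 under E1A scaling and -0.58 after normexp correction. Plcg2, the phospholipase of B cell receptor signalling, had -2.26 in EV-treated against smoke lungs (adjusted p = 0.0433, E1A -4.74), and Plcb4 had -2.69 in MSC-treated against smoke lungs (adjusted p = 0.000523, E1A -6.71).

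Diacylglycerol kinases, which remove the activating lipid, had 1 of 6 measured genes higher and 1 lower in smoke against naive, 1 and 1 in EV-treated against smoke, and 2 and 1 in MSC-treated against smoke lungs (1 and 1, 1 and 1, and 1 and 2 under median scaling). Dgkz was the higher, with 2.63 (adjusted p = 0.00277, E1A 5.59), and Dgki the lower, with -1.46 (adjusted p = 0.0187, E1A 1.50). In EV-treated and MSC-treated against smoke lungs Dgkz had -2.52 and -1.76 (limma, adjusted p = 0.00474 and 0.00514) and Dgki 1.49 and 2.61 (adjusted p = 0.021 and 0.00111). Under E1A scaling both genes were negative in both of these comparisons, Dgkz with -5.00 and -5.78 and Dgki with -0.99 and -1.41. After normexp correction Dgkz had 0.15 in MSC-treated against smoke lungs.

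The list for priming and dephosphorylation of the kinases had 1 higher and 4 lower of 9 measured in smoke against naive lungs, 3 and 1 in EV-treated against smoke, and 4 and 1 in MSC-treated against smoke lungs (1 and 2, 2 and 1, and 2 and 1 under median scaling). Phlpp2, a phosphatase that removes a stabilising phosphate from protein kinase C, had -2.82, 2.90 and 3.30 (limma, adjusted p = 0.00244, 0.00415 and 0.000379), with 0.14, 0.42 and -0.72 under E1A scaling. Mtor, the catalytic subunit of the complex that phosphorylates the turn motif, was well above background on both smoke arrays and on none of the EV-treated, MSC-treated or naive arrays. It was at least 2.38-fold higher in smoke than in naive lungs on the 75th percentile scale. Against smoke lungs it was at least 3.39-fold lower in EV-treated and at least 1.60-fold lower in MSC-treated lungs. The plain differences, not these bounds, had adjusted p = 0.00871, 0.021 and 0.00896 (limma). Mtor passed the detection filter only through the smoke arrays, where it was high, so these p-values are not separate support. For such a bound the dim side was taken on each array at the lowest signal well above background, or at the probe's own signal where that was higher. On the log2 scale Mtor had 5.54, -4.61 and -6.31 under E1A scaling, but -0.70, 0.45 and 1.42 after normexp correction.

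Among 9 anchors, which hold the kinases near their targets, 3 were higher and 2 lower in smoke against naive, 1 and 3 in EV-treated against smoke, and 2 and 3 in MSC-treated against smoke lungs (4 and 1, 1 and 3, and 2 and 4 under median scaling). Akap12, a scaffold, rose by 2.78 ± 0.44 in smoke against naive lungs (limma, adjusted p = 0.00355, E1A 5.74) and had -3.91 ± 0.44 in MSC-treated against smoke lungs (adjusted p = 0.000418, E1A -7.93). Cavin2, a caveolar protein that binds protein kinase C, had -2.13 ± 0.47 in smoke against naive (adjusted p = 0.0121, E1A 0.55) and 1.77 ± 0.47 in EV-treated against smoke lungs (adjusted p = 0.0267, E1A -0.43), with 1 smoke array left out because its spot was an outlier. The single smoke array left was assumed to vary like the other groups, from which its SE comes. Rack1, the receptor for activated C kinase, had -2.64 in EV-treated against smoke lungs (adjusted p = 0.0087, E1A -5.12). Pdlim5 had 3.79 ± 1.02 in MSC-treated against smoke lungs (adjusted p = 0.0145, E1A -0.23).

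Of 10 measured substrates, 2 were higher and 4 lower in smoke against naive lungs, 3 and 0 in EV-treated against smoke, and 3 and 2 in MSC-treated against smoke lungs (2 and 1, 2 and 2, and 2 and 3 under median scaling). Marcksl1, a membrane protein that binds actin and is released on phosphorylation, fell by 3.73 ± 0.37 in smoke against naive lungs and rose by 3.72 ± 0.37 in EV-treated and 5.51 ± 0.37 in MSC-treated against smoke lungs (limma, adjusted p = 0.00233, 0.00313 and 0.000232). It had the same signs under E1A scaling, with -0.77, 1.24 and 1.49. Plek, the main substrate in platelets, had 2.00 ± 0.60 in smoke against naive lungs (adjusted p = 0.0297, E1A 4.96, normexp -0.04) and -1.75 ± 0.60 in MSC-treated against smoke lungs (adjusted p = 0.0375, E1A -5.77, normexp 0.64).

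The partners of the atypical kinases, the Par polarity proteins, had 0 higher and 2 lower of 8 measured in smoke against naive, 2 and 0 in EV-treated against smoke, and 2 and 1 in MSC-treated against smoke lungs (0 and 1, 1 and 0, and 1 and 2 under median scaling). Pard3b had -2.02, 1.89 and 2.42 (limma, adjusted p = 0.00679, 0.011 and 0.00177), with 0.94, -0.59 and -1.60 under E1A scaling. Pard6b had -2.15 in MSC-treated against smoke lungs (adjusted p = 0.00211, E1A -6.17). Of 5 related kinases, 1 was higher and 1 lower, 0 and 1, and 2 and 1 in the 3 comparisons (1 and 0, 0 and 1, and 0 and 1 under median scaling). Prkd3, a kinase that protein kinase C activates, had 1.62, -1.23 and -2.47 (adjusted p = 0.00586, 0.0183 and 0.000563), with 4.59, -3.72 and -6.50 under E1A scaling. Pkn2 had -1.11 in smoke against naive lungs (adjusted p = 0.0403, E1A 1.86).

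Of 8 measured genes of the route from protein kinase C through CARD proteins, BCL10 and MALT1 to NF-kappaB, 1 was higher and 1 lower in smoke against naive, 1 and 0 in EV-treated against smoke, and 1 and 1 in MSC-treated against smoke lungs (2 and 1, 1 and 1, and 1 and 3 under median scaling). Map3k7, a kinase of that route, had -1.65, 1.70 and 2.16 in the 3 comparisons (limma, adjusted p = 0.00634, 0.0076 and 0.0011), with 1.32, -0.78 and -1.86 under E1A scaling. Card9, a myeloid adaptor, was well above background on both smoke arrays and on no naive or MSC-treated array. It was at least 3.08-fold higher in smoke than in naive lungs and at least 1.92-fold lower in MSC-treated than in smoke lungs. The plain differences, not these bounds, had adjusted p = 0.0179 and 0.0401 (limma). Among the groups compared, Card9 met the detection filter only in smoke lungs, where it was high, so these p-values are not separate support. On the log2 scale Card9 had 5.60 and -5.98 under E1A scaling and -0.55 and 1.18 after normexp correction. Of 7 other diacylglycerol receptors, 1 was higher and 1 lower, 2 and 0, and 2 and 2 in the 3 comparisons (2 and 1, 1 and 1, and 1 and 3 under median scaling). Unc13a had -2.37 in smoke against naive lungs (limma, adjusted p = 0.00459). It was well above background on 0 of 2 smoke and 1 of 2 naive arrays, so this difference is not a bound. Unc13a was at least 4.66-fold higher in EV-treated (adjusted p = 0.0076) and at least 8.98-fold higher in MSC-treated (adjusted p = 0.000696) than in smoke lungs. The probe's own smoke signals set both bounds, so the folds equal those of the plain log2 differences, 2.22 and 3.17. Unc13a passed the detection filter only through treated arrays, where it was high, so the p-values of these 2 comparisons are not separate support. Under E1A scaling its 3 differences were 0.59, -0.26 and -0.85 on the log2 scale. Chn2 was at least 1.15-fold higher in smoke than in naive lungs (adjusted p = 0.0496 for the plain difference, E1A 3.94, normexp -1.49). Chn1 had -1.52 in MSC-treated against smoke lungs (adjusted p = 0.00551, E1A -5.54).

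The probes whose levels ran most like a member's were named by Pearson's r over the 8 arrays, as a description; arrays of a group share their treatment and slide column. Prkca ran most like Ppp1r2 (r = 0.999) and Fxr2 (r = 0.998), among 16161 candidate probes. The brighter Prkcb probe ran most like Rps26 (r = 0.991) and Limd2 (r = 0.987), the brighter Prkcd probe like Cul9 (r = 0.988) and Hdgf (r = 0.986), and Prkce like Sema4f (r = 0.985) and Prcp (r = 0.984). Prkci ran most like Caap1 (r = 0.988) and Clic5 (r = 0.984), the brighter Prkcz probe like Fam8a1 and Fam76a (r = 0.979 each), and Prkch like Zfp746 (r = 0.957) and C9h2orf69 (r = 0.948). Within the family, the brighter probes of Prkcb and Prkcq had r = 0.90, the brighter Prkcb probe and Prkci r = -0.92, and Prkca and the dimmer Prkcz probe r = -0.82. The 2 probes of Prkcb had r = 0.09 with each other and those of Prkcz r = -0.02.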

How the data were processed

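Total RNA from 30 mg of lung (200 ng labelled with Cy3, per the labels) was hybridised to 8 1-colour arrays on 1 slide, scanned once. Per the file headers, scanner output of Agilent Feature Extraction 10.7.3.1 (design 074036) was deposited. In the deposited files each spot has an intensity given as a processed signal, from which the scanner software had subtracted background, and as median pixels of spot and background, per the file headers. The other flags in the deposited files mark each spot as well above background, saturated or an outlier. No normalization across arrays is recorded in the headers.

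Of 62976 spots per array, 4259 were controls. After removal of outlier spots (4 among the protein kinase C spots, all of the brighter Prkcb probe), replicate spots were averaged. The level was log2 processed signal less the 75th percentile of all non-control spots of that array. Probes were matched by RefSeq accession without version to the rat genes of RefSeq (21215 of 45598 matched) that supplied names. Levels were fitted with limma 3.58.1 in R 4.3.3 as 4 group means, leaving 4 residual degrees of freedom (prior 3.59), with Benjamini-Hochberg adjustment at 0.05 over the 29838 tested probes in each of 6 comparisons, 2-sided. The fit was run on simulated data with the same spread for every probe and no difference in brightness between arrays. That run does not test the calls under the brightness differences of these arrays. Between 48.2% and 71.4% of probes were well above background on an array, and replicates correlated at 0.951 to 0.979. The precision is limited by 2 arrays per group.

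Alternatives were scaling to E1A spike-ins, quantile normalization, normexp background correction (on median pixels, offset 50), no filter, 1 probe per gene, blocking on replicate number, and leaving out arrays singly. Median scaling, the 75th percentile over probes and cyclic loess were chosen after seeing the data. Every member probe is named; of each list, the called gene with the highest and with the lowest difference, and for each member's brightest probe, if well above background on all arrays, the 2 most correlated named probes. One gene that this rule names is not reported here. The members and lists were chosen with earlier results of these data known. Figures were drawn with Python 3.11.15 and matplotlib 3.10.9, and tables read with version 1.17.8 of the data.table package and jsonlite 2.0.0.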

Additional observations from a re-analysis of the deposited data

How the results depend on the processing

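Under E1A scaling 11, 11 and 11 protein kinase C probes were called in smoke against naive, EV-treated against smoke and MSC-treated against smoke lungs, 4 in EV-treated against MSC-treated and 1 in MSC-treated against naive lungs. It turned, in smoke against naive lungs, Prkca to 1.57, Prkcb (dimmer) to 2.69, Prkcd (brighter) to 2.36, Prkcz (brighter) to 2.68, Prkci to 2.05 and Prkch to 2.93. In EV-treated against smoke lungs it turned them to -1.45, -2.17, -1.85, -2.22, -1.92 and -2.23 in that order, in MSC-treated against smoke lungs Prkca to -2.41, Prkcb (dimmer) to -2.89, Prkcd (brighter) to -3.30 and Prkci to -3.76, and in MSC-treated against naive lungs Prkcb (dimmer) to -0.20. E1A scaling by its construction keeps the difference in brightness between arrays.

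After normexp correction 5 of 11 probes were called in smoke against naive lungs, beside 73.9% of all probes. In EV-treated against MSC-treated lungs this correction called 3 of 11, beside 51.6% of all probes. It turned Prkcd (dimmer) to -1.32, 0.99 and 1.90 in the 3 comparisons involving smoke lungs, Prkcz (dimmer) to -0.14 in smoke against naive and 0.64 in MSC-treated against smoke lungs, Prkch to 0.04 in smoke against naive lungs, Prkcq (brighter) to 0.42 and Prkce to 0.09 in MSC-treated against smoke lungs, and Prkce to -0.18 in EV-treated against MSC-treated lungs. By its construction an offset of 50 is added to every signal, where processed signals of the dimmer Prkcz probe outside smoke lungs were 10.9 to 37.0.

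In smoke against naive lungs 4 probes were called under median scaling (40.8% of all probes), 4 under cyclic loess (39.5%) and 1 of 8 with 1 probe per gene (47.4%). Prkcb (dimmer) turned to 0.02 (quantile), 0.06 (median scaling) and 0.08 (loess), Prkch to 0.37 (quantile), 0.29 (median), 0.18 (75th percentile over probes) and 0.45 (loess), Prkcz (brighter) to 0.05 (median) and 0.06 (loess), and Prkcd (brighter) to 0.03 (loess). In EV-treated against smoke lungs only the dimmer Prkcz probe was called, as lower, under quantile normalization, no filter, median scaling, the 75th percentile over probes and cyclic loess. Those settings called between 17.9% (no filter) and 35.4% (75th percentile over probes) of all probes. With 1 probe per gene only Prkca of 8 was called, as higher, beside 39.7% of all probes. Prkch turned to -0.08 (quantile), -0.04 (median) and -0.17 (loess), Prkcz (brighter) to -0.03 (median and loess), Prkci to -0.03 and Prkcb (dimmer) to 0 (loess). In MSC-treated against smoke lungs 2 of 8 were called with 1 probe per gene, beside 59.6% of all probes. Prkci turned there to -0.44 (quantile), -0.32 (median), -0.14 (75th percentile over probes) and -0.53 (loess). The causes were not tested.

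With 1 array left out, the number of called protein kinase C probes changed in the 3 comparisons involving smoke lungs. So did the number called over all probes. Only differences are given here, as 1 group then held 1 array. Single differences that turned sign ran, for Prkcd (dimmer), between -0.21 and 0.83 in smoke against naive, -0.84 and 0.21 in EV-treated against smoke and -0.56 and 0.48 in MSC-treated against smoke lungs, for Prkch between -0.52 and 0.45 in smoke against naive and -0.15 and 0.67 in EV-treated against smoke lungs, and for Prkci between -0.30 and 0.81 in MSC-treated against smoke lungs. A group left with 1 array was assumed to vary like the others. Replicate numbers did not pair the samples (correlations of deviations -0.14 to 0.14). With the number as a block, 1 probe was called in EV-treated against smoke lungs, beside 36.6% of all probes. Prkca was lost there (limma, adjusted p = 0.0582), and no other count of protein kinase C probes changed. Over all probes the calls in EV-treated against MSC-treated lungs went to 0, against 1656 without the block. Of 38 differences per setting, 37 kept direction and side of the threshold without the filter and 37 with the block, 30 under quantile normalization and 4 under E1A scaling. The dimmer probes of Prkcd, Prkcq and Prkcz, at or near background in naive and MSC-treated lungs, limit what can be read of them.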
